A study of Mus musculus with 24 samples.

Results

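The genes of cholesterol synthesis and of its control by SREBP2 were followed in mouse bone marrow derived macrophages with and without a myeloid deletion of Slc2a1, the gene of the glucose transporter GLUT1. The module was defined by 30 gene names of known role in the pathway. Msmo1 and Sc4mol are names of the same gene, which leaves 29 genes. The array carried probes under the names of 28 of them, all except Acat2, and these 28 were measured among 25826 genes tested. Each gene was read by its brightest probe, and that probe was well above background on 24 of 24 arrays for all 28 genes.

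The KO cells came from mice that the labels give as LysMCre X Slc2a1fl/fl, in which Cre recombinase is made from the lysozyme locus Lyz2 in myeloid cells. The WT cells came from Slc2a1 fl/fl mice, which carry the floxed alleles and for which the labels give no Cre. Marrow was grown for 6 days in 20 ng/ml M-CSF, the macrophage growth factor, and the cells of each genotype were then kept for 24 h without stimulus (M0), with 5 ng/ml LPS and 10 ng/ml interferon-gamma (M1), or with 10 ng/ml interleukin-4 (M2). Each of the 6 groups had 4 biological replicates, each on 1 one-colour Agilent array.

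Cells make cholesterol from acetyl-CoA through mevalonate, isoprenoid diphosphates, squalene and lanosterol. Most of the enzymes are transcribed under SREBP2, the product of Srebf2. When membrane sterols are plentiful, the escort protein Scap and its precursor cargo are held in the endoplasmic reticulum by Insig1 and Insig2, and when sterols fall the cargo is carried to the Golgi, cut and released to the nucleus. Insig1 is itself a target of this pathway, and in macrophages oxysterols and inflammatory signals are known to act on it.

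The arrays held 62976 spots each, of which 59305 were gene spots. Their 75th percentile of processed signal ran from 1504 to 2973 intensity units, and 50.8 to 71.3% of gene probes were well above background. The arrays lay on 3 slides, and by their place on the slides they formed 4 sets of 6 arrays, each set with every group once. The set made of the last pair of each slide stood apart: Uty, Ddx3y and Eif2s3y, which lie on the Y chromosome, were well above background on 0 of its 6 arrays, against 18 of the 18 others, and Xist on 6 of 6, against 2 of 18. The members themselves read a median of 0.00 higher (log2) in this set than in the others, with single genes between -0.33 and 0.43, and results are given with and without it where it mattered. Lyz2 was lower in KO cells in every state, with log2 differences of -2.66, -3.37 and -4.04 in M0, M1 and M2 (limma, adjusted p = 0.00167, 2.15e-07 and 6.24e-06, 4 of 4 sets each). The Slc2a1 probe differed by -0.33 ± 0.35, 0.25 ± 0.35 and -0.18 ± 0.35 (difference ± SE, n = 4 per group) in the same states with no call in any. The sources used here do not say which exons were deleted, so this probe does not check the deletion.

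Levels below are log2 intensities relative to the 75th percentile of the array, and differences are on the same log2 scale. A gene was called where limma gave an adjusted p under 0.05 over all 25826 genes. The probes lie, in build mm9 of the array design, at chr5:28404246-28404305 for Insig1, chr8:124957750-124957809 for Mvd, chr11:78355314-78355373 for Tmem97 and chr15:82035495-82035554 for Srebf2. Levels of different genes come from different probes and are not compared with each other.

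Across the 24 arrays the module moved mainly with activation. With interleukin-4 most sterol enzymes were higher than in M0 in both genotypes, by up to 1.32 on the log2 scale (Mvd in KO cells). With LPS and interferon-gamma most were lower in both genotypes, by as much as -3.27 (Idi1 in KO cells). Between the genotypes 0 of 28 members were called in M0 and 0 in M2, where 0.0542% and 0.0426% of all genes were called. In M1 cells the members split: 9 were higher and 10 were lower in KO cells. All genes split there too, with 22.8% higher and 21.4% lower.

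**Figure D1:**
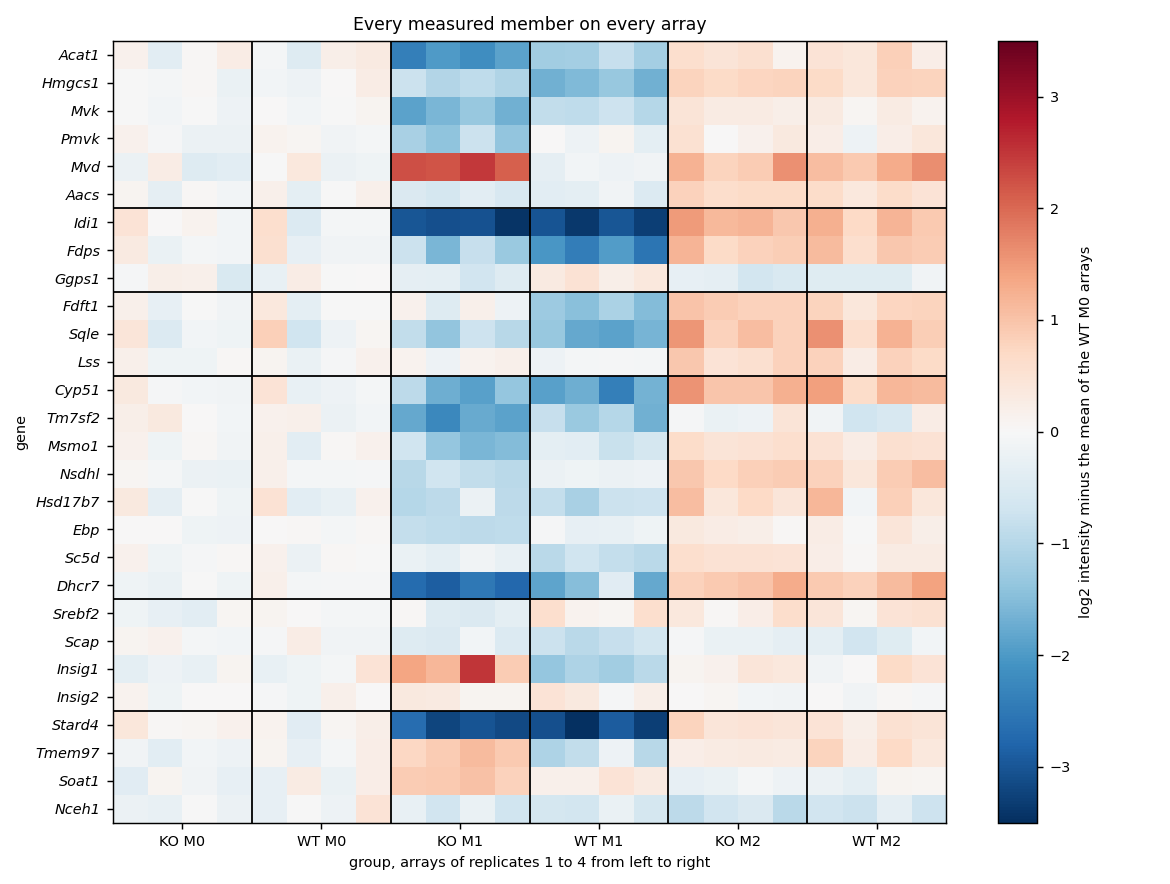
Level of each of the 28 measured genes (rows, grouped by role from acetyl-CoA at the top to transport and storage at the bottom) on each of the 24 arrays (columns, 4 replicates per group, KO left of WT in each state). Colour is the log2 intensity minus the mean of the 4 WT M0 arrays. The M0 columns stay near 0, the M2 columns are mostly above it, and Mvd, Insig1, Tmem97 and Soat1 are above it in the KO M1 columns while most other genes there are below it.

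Promoter windows were available for 23 of the 28 genes in the RefSeq table of build GRCm38.p6, each with 250 bases before and 50 after an annotated start. The NF-Y box CCAAT, which SREBP2 target promoters commonly carry next to a sterol element, was found on either strand in 21 of the 23 genes (91.3%), against 41.1% of all 27025 genes in the table and 42.4% of the 14184 genes that were tested and had a window. The Sp1 box GGGCGG was in 19 of 23 (82.6%), against 38.2% of all genes and 8009 of the 14184 tested genes with a window. Of those 19 genes, 18 also had the NF-Y box, against 42.6% of the 8009 tested genes with a Sp1 box. The E-box CACGTG was in 6 of 23 (26.1%), against 8.09% of all genes and 10.3% of tested genes with a window. The sterol element core TCACNCCAC was in 1 of 23, Hmgcs1 (4.35%, against 1.44%), where it read TCACCCCAC. The other windows lack these exact letters, and sterol elements of other spelling were not searched. Matches of different motifs can share a base at their ends, and a match describes the letters only.

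The 250 bases before the start are shown for 6 members on which the results turn: Hmgcs1 as the one with the sterol element core, Insig1, Mvd and Tmem97 with the largest gains in KO M1 cells, and Mvk and Ebp as enzymes with NF-Y boxes that were lower there. Capitals mark the sterol element core and the NF-Y boxes (CCAAT, or ATTGG on the other strand), and each sequence reads 5′ to 3′ along the gene. The positions in GRCm38.p6 are chr13:119690101-119690350, plus strand for Hmgcs1, chr5:28071162-28071411, plus strand for Insig1 and chr8:122443423-122443672, minus strand for Mvd. They are chr11:78550736-78550985, minus strand for Tmem97, chr5:114444019-114444268, plus strand for Mvk and chrX:8193513-8193762, minus strand for Ebp.
Hmgcs1: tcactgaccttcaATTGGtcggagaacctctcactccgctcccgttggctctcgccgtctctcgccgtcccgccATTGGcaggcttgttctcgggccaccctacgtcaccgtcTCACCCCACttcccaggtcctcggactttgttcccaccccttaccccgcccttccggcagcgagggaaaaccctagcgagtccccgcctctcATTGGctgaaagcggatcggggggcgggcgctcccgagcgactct
Insig1: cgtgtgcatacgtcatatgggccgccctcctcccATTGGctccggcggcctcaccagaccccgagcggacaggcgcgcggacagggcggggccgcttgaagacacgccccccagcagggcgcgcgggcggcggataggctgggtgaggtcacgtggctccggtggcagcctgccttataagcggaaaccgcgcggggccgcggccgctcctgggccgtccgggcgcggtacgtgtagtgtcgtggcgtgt
Mvd: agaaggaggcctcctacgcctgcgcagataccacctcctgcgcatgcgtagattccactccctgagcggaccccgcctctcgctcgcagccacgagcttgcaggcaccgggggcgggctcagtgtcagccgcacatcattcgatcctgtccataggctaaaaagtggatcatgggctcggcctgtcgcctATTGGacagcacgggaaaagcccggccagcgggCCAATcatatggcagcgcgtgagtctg
Tmem97: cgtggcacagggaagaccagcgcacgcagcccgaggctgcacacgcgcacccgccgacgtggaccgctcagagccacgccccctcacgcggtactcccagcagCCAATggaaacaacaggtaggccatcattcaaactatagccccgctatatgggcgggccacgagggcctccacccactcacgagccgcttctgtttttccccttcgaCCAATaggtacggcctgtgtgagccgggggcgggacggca
Mvk: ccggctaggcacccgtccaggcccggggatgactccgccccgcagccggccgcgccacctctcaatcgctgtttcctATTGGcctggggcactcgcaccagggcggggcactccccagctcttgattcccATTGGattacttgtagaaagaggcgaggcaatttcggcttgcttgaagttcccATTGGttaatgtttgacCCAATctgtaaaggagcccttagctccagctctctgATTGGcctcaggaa
Ebp: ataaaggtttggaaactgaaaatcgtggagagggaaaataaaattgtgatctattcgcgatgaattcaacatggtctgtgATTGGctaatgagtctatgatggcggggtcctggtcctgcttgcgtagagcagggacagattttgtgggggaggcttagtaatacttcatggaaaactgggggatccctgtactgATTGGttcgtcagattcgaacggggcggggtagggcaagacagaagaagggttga
Hmgcs1 has 3 NF-Y boxes, Mvk has 5, Mvd, Tmem97 and Ebp have 2 each, and Insig1 has 1. Genes with NF-Y boxes were among both those that were higher and those that were lower in KO M1 cells. The box was in 21 of the 23 genes, and Mvk and Ebp were shown because they had it and were lower. Boxes in both directions therefore do not tell whether the box goes with the direction of change. Fdps and Fdft1, which were higher, and Acat1, which was lower, had no window.

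In M1 cells, KO cells were compared with floxed controls under LPS and interferon-gamma. The labels give Cre for the KO mice alone, so Cre and its place in Lyz2 changed together with the deletion. Their part in the differences was not tested. Of the 28 members 19 differed between KO and WT cells, 9 higher and 10 lower in KO, while 44.2% of all genes tested were called in this comparison (22.8% higher and 21.4% lower). The median difference over the members was 0.08, against 0.13 over all genes, a background shift that was -0.05 after quantile normalization. The 9 higher members were the SREBP2 regulators Insig1 and Scap, the enzymes Mvd, Fdft1, Fdps, Hmgcs1 and Sc5d, and Tmem97 and Soat1. The 10 lower members were Srebf2 and the enzymes Dhcr7, Pmvk, Acat1, Ggps1, Msmo1, Mvk, Tm7sf2, Ebp and Nsdhl.

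The marker sums moved in the same comparison. The summed linear level of 6 genes of dividing cells was 9.38 to 16.1 in KO M1 cells, against 1.80 to 3.31 in WT M1 cells, and 4 of the 6 were called higher. The sum of 8 neutrophil genes was 72.2 to 185 in KO M1 cells and 20.4 to 75.1 in WT M1 cells, with 3 called higher and 1 lower. The sum of 7 macrophage genes was 618 to 941 in KO M1 cells and 746 to 886 in WT M1 cells, with 1 called higher and 1 lower. Every marker of these 3 lists was well above background on at least 1 array of each M1 group. The 4 fibroblast genes, with 0 called, summed to 0.776 to 3.92 in KO M1 cells and 0.898 to 1.25 in WT M1 cells. The 4 B and T cell genes summed to 0.696 to 1.23 in KO M1 cells and 0.680 to 0.956 in WT M1 cells, with 2 called higher, and the 5 dendritic cell genes to 3.25 to 15.6 in KO M1 cells and 2.70 to 12.1 in WT M1 cells, with 1 higher and 1 lower. The 4 M2 activation genes were all called, 3 higher and 1 lower, and summed to 8.68 to 42.5 in KO M1 cells and 61.5 to 80.8 in WT M1 cells. Their median log2 difference was 2.44, so this sum went against the direction of most of its genes. Of these 4 genes 1 was well above background on no WT M1 array. Of the 4 M1 activation genes 1 was called higher, with sums of 384 to 671 in KO M1 cells and 390 to 491 in WT M1 cells. The part of these cells in the results was not tested, and in such bulk RNA fewer cells of a type and less RNA per cell cannot be told apart.

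Among the control genes, Insig1, the sterol-regulated anchor of Scap, showed the largest genotype difference of the module. Its log2 level was 0.77, 0.56, 1.91 and 0.28 on the KO M1 arrays, against -1.95, -1.68, -1.82 and -1.55 on the WT M1 arrays. All 4 KO arrays were above all 4 WT arrays, and KO replicate 3, an array of the set that stands apart, was the highest. The difference was 2.63 ± 0.26 (SE), or 6.18-fold (adjusted p = 5.15e-08), and it was 2.26 without that set. By set it ran from 1.83 to 3.73.

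Scap, the escort of the SREBP precursors, read 3.39, 3.33, 3.75 and 3.37 on KO M1 arrays and 3.09, 2.89, 3.02 and 3.20 on WT M1 arrays. The groups did not overlap, the third KO replicate was again the highest, and the difference was 0.41 ± 0.12 (adjusted p = 0.0106). Srebf2, which encodes SREBP2, read 2.58, 2.1, 2.04 and 2.2 on KO M1 arrays and 3.13, 2.66, 2.61 and 3.13 on WT M1 arrays. Every KO array was below every WT array, with the highest KO array just under the lowest WT array, and the difference was -0.65 ± 0.16 (adjusted p = 0.00192). The other Srebf2 probe read 0.61 ± 0.45 in the opposite direction without a call (adjusted p = 0.284), and with the mean of both probes the difference was -0.02 (adjusted p = 0.954). The Srebf2 call therefore holds for its brightest probe and not for the gene as a mean of probes. Insig2, the second anchor, read 2.05, 2.03, 1.80 and 1.81 on KO M1 arrays and 2.18, 2.05, 1.66 and 1.91 on WT M1 arrays, and the groups overlapped. Its difference was -0.03 ± 0.11 (adjusted p = 0.868), though 1 of its 2 other probes was called higher, by 0.51 (adjusted p = 0.0017).

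**Figure D2:**
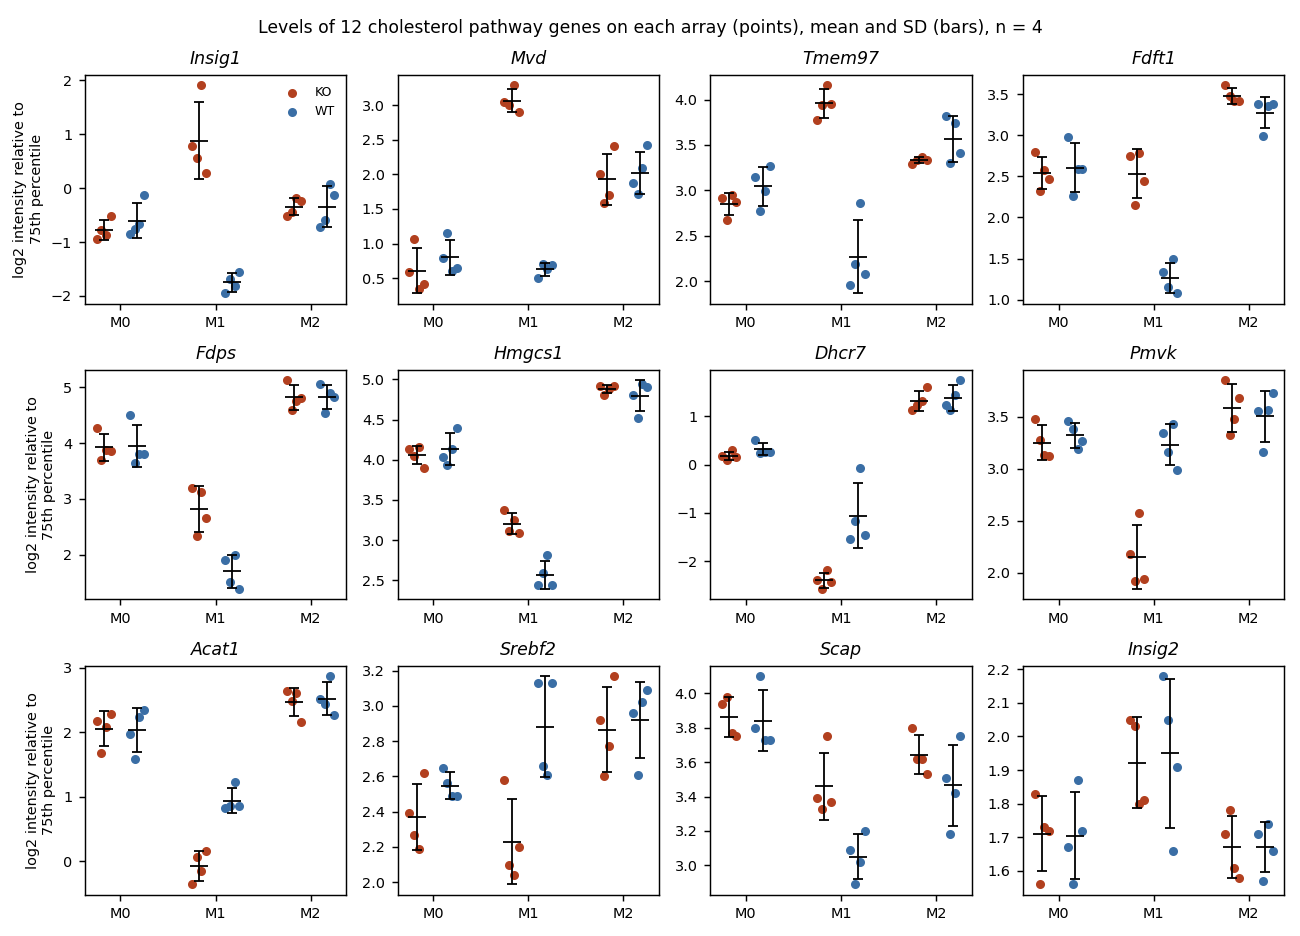
Log2 level of 12 members on each array (points, KO in red left of WT in blue) in M0, M1 and M2, with the mean and SD of the 4 replicates (black bars). The genotypes overlap in M0, and in M2 for all but Fdft1, while in M1 the KO points of Insig1, Mvd, Tmem97, Fdft1, Fdps, Hmgcs1 and Scap lie above the WT points and those of Dhcr7, Pmvk, Acat1 and Srebf2 lie below.

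In the segment from acetyl-CoA to mevalonate and its activation, 2 of 6 measured members were higher and 3 were lower in KO M1 cells. Of all genes 22.8% were higher and 21.4% were lower there. Mvd, the decarboxylase that makes isopentenyl diphosphate, read 3.05, 3.00, 3.29 and 2.90 on KO M1 arrays and 0.50, 0.70, 0.63 and 0.69 on WT M1 arrays. All KO arrays were at least as high as 2.90 and no WT array passed 0.70. The difference was 2.43 ± 0.19, or 5.39-fold (adjusted p = 2.00e-09). Hmgcs1, the cytosolic HMG-CoA synthase, was higher by 0.64 ± 0.12 (adjusted p = 0.000144).

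The kinases before Mvd and the mitochondrial thiolase Acat1 were lower in KO M1 cells. Pmvk, the kinase that acts just before Mvd, read 2.18, 1.92, 2.58 and 1.94 on KO M1 arrays and 3.35, 3.16, 3.43 and 2.99 on WT M1 arrays. Every KO array was lower than every WT array, and the difference was -1.08 ± 0.16 (adjusted p = 9.63e-06). Mvk, mevalonate kinase, was lower, at -0.75 ± 0.10 (adjusted p = 4.86e-06). Acat1, a mitochondrial thiolase, read -0.36, 0.06, -0.15 and 0.15 on KO M1 arrays and 0.82, 0.85, 1.23 and 0.85 on WT M1 arrays. The groups did not overlap, and the difference was -1.01 ± 0.18 (adjusted p = 9.05e-05). Aacs, which activates acetoacetate, was not called (-0.18 ± 0.12).

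Among the isoprenoid synthases Fdps, which makes farnesyl diphosphate, read 3.20, 2.33, 3.13 and 2.65 on KO M1 arrays and 1.91, 1.52, 2.00 and 1.39 on WT M1 arrays. All KO arrays were above all WT arrays, by 1.12 ± 0.21 on average (adjusted p = 0.000183). Ggps1, which makes geranylgeranyl diphosphate, was lower, at -0.80 ± 0.15 (adjusted p = 0.00019). Its 5 other probes ranged from -1.02 to 0.60, with 3 of them called lower and 0 called higher. Idi1, the isomerase that precedes Fdps, differed by 0.03 ± 0.19 with no call.

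Of the 3 enzymes from squalene to lanosterol, Fdft1, squalene synthase, was the one called, where 44.2% of all genes were called. It read 2.75, 2.15, 2.78 and 2.44 on KO M1 arrays and 1.34, 1.15, 1.49 and 1.08 on WT M1 arrays. The lowest KO array was above the highest WT array, and the difference was 1.27 ± 0.16 (adjusted p = 1.40e-06). Sqle, squalene epoxidase, read 0.66 ± 0.28 higher with no call (adjusted p = 0.0631), and was called once the pairing of KO and WT by replicate number entered as a block (adjusted p = 0.00158). Lss, lanosterol synthase, differed by 0.15 ± 0.14 with no call.

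Of the 8 enzymes from lanosterol to cholesterol, 5 were lower and 1 was higher in KO M1 cells (21.4% and 22.8% of all genes). Dhcr7, the reductase that yields cholesterol itself, read -2.38, -2.57, -2.19 and -2.43 on KO M1 arrays and -1.53, -1.17, -0.07 and -1.46 on WT M1 arrays. All KO arrays were below all WT arrays, and the third WT replicate, of the set that stands apart, was the highest. The difference was -1.34 ± 0.22 (adjusted p = 4.61e-05) and was -1.08 without that set. Lower, with differences from -0.68 to -0.77, were the methylsterol oxidase Msmo1, the sterol reductase Tm7sf2, the sterol isomerase Ebp and the sterol dehydrogenase Nsdhl (adjusted p from 3.11e-06 for Ebp to 0.00961 for Tm7sf2). The Msmo1 groups overlapped, and the Nsdhl call was lost when its 2 probes were averaged (-0.23, adjusted p = 0.558). Sc5d, a sterol desaturase, was higher by 0.61 ± 0.10 (adjusted p = 2.13e-05), while its other probe read 0.07 with no call. Cyp51, the demethylase of lanosterol, read 0.45 ± 0.23 (adjusted p = 0.121), was called with the replicate block (adjusted p = 0.0184), and its other probe was called higher by 0.58. Hsd17b7, a sterol ketone reductase, differed by 0.10 ± 0.25 with no call.

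Among the genes of transport and storage, Tmem97, a membrane protein that binds the lysosomal cholesterol exporter NPC1 in human cells, read 3.78, 3.94, 4.16 and 3.95 on KO M1 arrays and 1.96, 2.19, 2.86 and 2.08 on WT M1 arrays. All KO arrays were above all WT arrays, and the difference was 1.68 ± 0.16, or 3.21-fold (adjusted p = 4.33e-08). Its 2 other probes gave 1.54 and 1.64. Soat1, which makes cholesteryl esters, was higher by 0.63 ± 0.14 (adjusted p = 0.00104), and of its 4 other probes 3 were called higher and 1 was called lower, at -0.37. Stard4, a sterol transfer protein, and Nceh1, a hydrolase of cholesteryl esters, differed by 0.22 ± 0.16 and 0.06 ± 0.16 with no call.

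**Figure D3:**
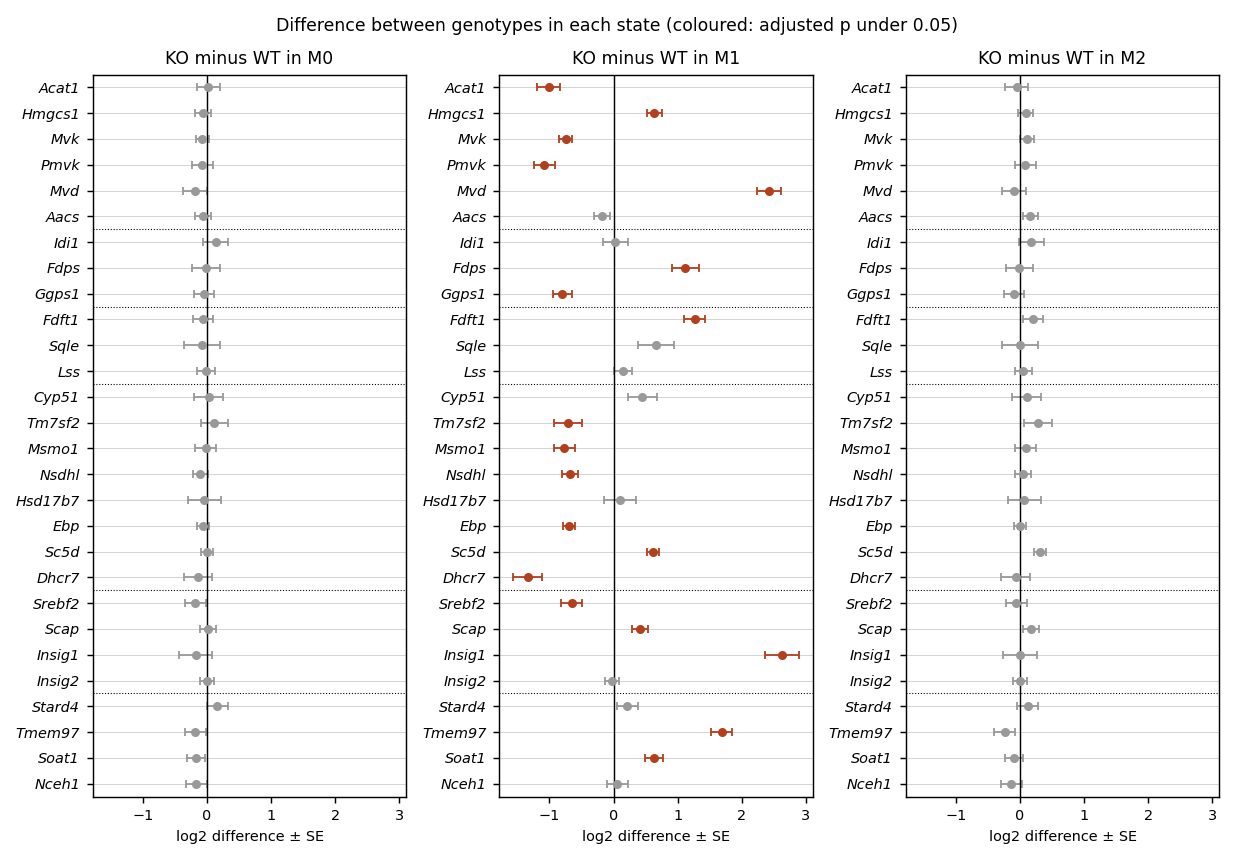
KO minus WT difference in log2 level (points, with SE bars) for the 28 members, ordered by role from top to bottom, in M0 (left), M1 (middle) and M2 (right). Red points passed the adjusted p threshold of 0.05, and they appear in the M1 panel alone, 9 to the right of 0 and 10 to the left.

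Averaged over the 3 states, 8 members were higher and 8 were lower in KO cells, where 28.8% of all genes were called. As no member was called in M0 or M2, this average does not show a difference shared by the states. With the mean over probes the calls of Srebf2 (-0.03, adjusted p = 0.9055), Nsdhl (-0.01, adjusted p = 0.974) and Ggps1 (-0.14, adjusted p = 0.115) were lost. Those of Scap and Fdps were lost in several fits that left out 1 array. The Fdps call was also lost without the set that stands apart (0.36, adjusted p = 0.067). In unstimulated cells no member was called, where 0.0542% of all genes were (0.00774% higher and 0.0465% lower, 14 genes, with 814 at an unadjusted p under 0.05). The member differences ran from -0.19 for Mvd to 0.16 for Stard4, with SEs from 0.09 to 0.28. In M2 cells no member was called either, where 0.0426% of all genes were (0.0155% higher and 0.0271% lower, 11 genes, with 1151 at an unadjusted p under 0.05). There the differences ran from -0.24 for Tmem97 to 0.31 for Sc5d. The Sc5d levels were 2.77, 2.70, 2.70 and 2.68 on KO M2 arrays and 2.43, 2.22, 2.48 and 2.47 on WT M2 arrays, which did not overlap, yet the adjusted p was 0.647. Fdft1 likewise did not overlap in M2, with 3.61, 3.48, 3.41 and 3.41 on KO arrays and 3.38, 2.99, 3.35 and 3.38 on WT arrays, and differed by 0.20 ± 0.16 with no call. Insig1 differed by -0.18 ± 0.26 in M0 and 0.00 ± 0.26 in M2.

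The M1 response was then taken within each genotype, M1 against M0. In KO cells 4 members rose and 19 fell (33.1% and 23.6% of all genes, 56.7% in all), and the member median was -0.74, against 0.25 over all genes. In WT cells 0 members rose and 19 fell (26.1% and 22.0% of all genes, 48.1% in all), and the member median was -0.82, against 0.04 over all genes. A total of 15 members fell in both genotypes, and 4 fell in KO cells with no call in WT cells: Pmvk, Ggps1, Nsdhl and Ebp. The shares of all genes with these pairs of calls were not counted, so the joint counts have no background beside them. Fdft1 and Nceh1 fell in WT cells with no call in KO cells, and Lss, Srebf2 and Insig2 were called in neither. The Ggps1 fall in KO cells (-0.40) was not called without the set that stands apart (-0.24, adjusted p = 0.205) or with the mean over its probes (-0.07, adjusted p = 0.612), and the Msmo1 fall in WT cells (-0.52) was not called with the mean over its probes (-0.02, adjusted p = 0.969). The calls of Sc5d and Hsd17b7 in KO cells and of Aacs in WT cells were lost in some fits that left out 1 array. These comparisons share the M1 arrays with the genotype comparison above. The split over all genes moved with the scaling: in KO cells 8550 genes rose and 6101 fell, against 6694 and 7457 with quantile normalization and 6569 and 7327 with the percentile taken over probes detected on every array. In WT cells 6736 rose and 5685 fell, against 5038 and 7360 with that percentile. No called member changed sign under any scaling.

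Cell markers moved with M1 activation too. The 6 genes of dividing cells summed to 9.38 to 16.1 in KO M1 cells, against 50.6 to 129 in KO M0 cells (5 lower), and to 1.80 to 3.31 in WT M1 cells, against 39.1 to 117 in WT M0 cells (6 lower). The 8 neutrophil genes summed to 72.2 to 185 in KO M1 cells, against 58.3 to 301 in KO M0 cells (2 higher, 0 lower), and to 20.4 to 75.1 in WT M1 cells, against 94.8 to 258 in WT M0 cells (1 higher, 6 lower). Their part in the members' responses was not tested. In M2 against M0 0 of the 6 and 0 of the 8 genes were called in either genotype.

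The deepest falls among the members were those of Stard4 and Idi1, in both genotypes. Stard4 read -1.11, -1.66, -1.47 and -1.60 on KO M1 arrays and 1.94, 1.59, 1.60 and 1.69 on KO M0 arrays, a change of -3.17 ± 0.16. It read -1.52, -2.06, -1.38 and -1.75 on WT M1 arrays and 1.67, 1.15, 1.60 and 1.76 on WT M0 arrays, a change of -3.22 ± 0.16. In each genotype every M1 array lay far below every M0 array (adjusted p = 2.40e-12 in KO and 4.37e-12 in WT cells), and the test of the difference between genotypes gave 0.06 ± 0.23 (adjusted p = 0.892). Idi1 fell by 3.27 in KO cells, to -0.67, -0.76, -0.73 and -1.11 on KO M1 arrays, against 2.81, 2.33, 2.44 and 2.24 on KO M0 arrays. It fell by 3.17 in WT cells, to -0.71, -1.05, -0.66 and -0.97 on WT M1 arrays, against 2.92, 1.85, 2.26 and 2.26 on WT M0 arrays, and the difference between genotypes was -0.10 ± 0.27 (adjusted p = 0.826).

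Other enzymes fell less in KO cells than in WT cells. Fdps changed by -1.1 in KO cells and -2.24 in WT cells, and Hmgcs1 by -0.86 in KO cells and -1.56 in WT cells. Fdft1 read -0.01 ± 0.16 in KO cells with no call, against -1.34 ± 0.16 in WT cells. The fall was deeper in KO cells for Dhcr7 (-2.57 in KO and -1.38 in WT cells), Acat1 (-2.13 in KO and -1.1 in WT cells) and Tm7sf2 (-2.02 in KO and -1.20 in WT cells). Each of these differences between genotypes was called in the test given below.

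The 4 members that rose in KO cells were Mvd, Insig1, Tmem97 and Soat1. Mvd read 3.05, 3.00, 3.29 and 2.90 on KO M1 arrays and 0.59, 1.07, 0.35 and 0.42 on KO M0 arrays, a rise of 2.45 ± 0.19 (adjusted p = 7.51e-10). On WT arrays it read 0.50, 0.70, 0.63 and 0.69 in M1 and 0.79, 1.16, 0.61 and 0.65 in M0, which overlapped (-0.17 ± 0.19, no call). Insig1 rose by 1.66 ± 0.26 in KO cells and fell by 1.15 ± 0.26 in WT cells, with M0 levels of -0.95, -0.78, -0.87 and -0.51 on KO arrays and -0.86, -0.75, -0.67 and -0.13 on WT arrays. Tmem97 rose by 1.1 ± 0.16 in KO cells and fell by 0.77 ± 0.16 in WT cells. In the set that stands apart Tmem97 was 0.09 higher in WT M1 than in WT M0, while in the other sets the difference ran from -1.19 to -0.80. Soat1 rose by 1.08 in KO cells and read 0.28 with no call in WT cells, but 1 of its other probes fell by 1.22 in KO cells.

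**Figure D4:**
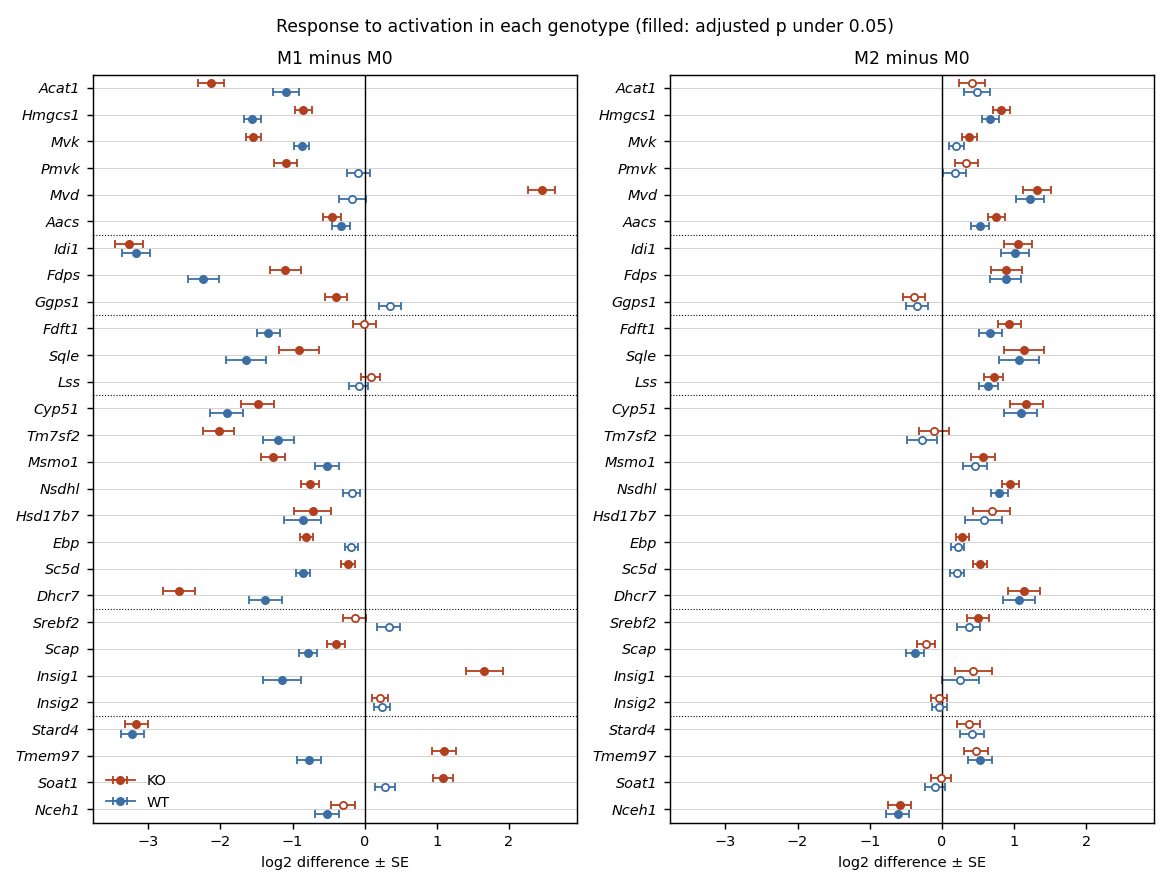
Change in log2 level from M0 (points, with SE bars) after M1 activation (left) and M2 activation (right) for the 28 members, KO in red above WT in blue. Filled points passed the adjusted p threshold of 0.05. In the M1 panel the KO points lie to the right of the WT points for Mvd, Insig1, Tmem97, Fdft1 and Fdps, among others. They lie to the left for Dhcr7, Acat1 and Pmvk, among others. In the M2 panel the points of the 2 genotypes lie close together for every member.

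Whether the M1 response itself differed between genotypes was tested as the interaction. It was called for 17 of 28 members, 8 with a positive and 9 with a negative difference (KO response minus WT response), where 30% of all genes were called (15.1% positive and 14.9% negative). The largest were Insig1 with 2.80 ± 0.37 (adjusted p = 5.74e-06), Mvd with 2.62 ± 0.27 (adjusted p = 3.23e-07) and Tmem97 with 1.87 ± 0.23 (adjusted p = 3.08e-06). The most negative were Dhcr7 with -1.20 ± 0.32, Acat1 with -1.03 ± 0.25 and Pmvk with -1.01 ± 0.22. Neither Srebf2 (-0.47, adjusted p = 0.126) nor Scap (0.39, adjusted p = 0.106) was called in this test, and what a block did depended on how the arrays were matched. The block by replicate number paired KO and WT of the same number within a state, and the set block also matched arrays across states. With the set as a block Scap was called (adjusted p = 0.0411) and Srebf2 was not. With the pairs within a state as a block, Srebf2 was called (adjusted p = 0.0183) and Scap was not. Sqle (0.74) was called with either (adjusted p = 0.0252 with the set and 0.0095 with the number), and the Msmo1 call was lost without the set that stands apart (-0.64, adjusted p = 0.058). The Tm7sf2 call (adjusted p = 0.0438) was lost when any 1 of 12 of the 24 arrays was left out (adjusted p up to 0.101), and the Soat1 call with quantile normalization (0.56, adjusted p = 0.0628). With the mean over the probes of a gene in place of the brightest, 11 members were called. The calls lost were those of Nsdhl, Sc5d, Msmo1, Tm7sf2, Ggps1 and Soat1.

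With interleukin-4 more members rose than fell. In KO cells 16 members rose and 1 fell (6.88% and 6.23% of all genes, 13.1% in all), and the member median was 0.51, against -0.06 over all genes. In WT cells 12 members rose and 2 fell (6.3% and 8.91% of all genes, 15.2% in all), and the member median was 0.47, against -0.09 over all genes. All 3 enzymes from squalene to lanosterol rose in both genotypes, and 11 members rose in both: Hmgcs1, Mvd, Aacs, Idi1, Fdps, Fdft1, Sqle, Lss, Cyp51, Nsdhl and Dhcr7. The share of all genes that rose in both was not counted. Nceh1 fell in both, by 0.59 in KO cells and 0.61 in WT cells. Its KO call was lost without the set that stands apart (-0.56, adjusted p = 0.0603). With only the compared groups in the fit, the WT calls of Fdft1 (adjusted p = 0.0621), Sqle (adjusted p = 0.11) and Lss (adjusted p = 0.0562) were lost. So were those of Aacs, Tmem97, Scap and Nceh1. The WT call of Nsdhl was lost with the mean over probes (adjusted p = 0.0834). In KO cells the Ebp call was lost with quantile normalization (adjusted p = 0.189) and with another background correction (adjusted p = 0.189). It was also lost with only the compared groups (adjusted p = 0.151) and in many fits that left out 1 array. The Msmo1 call was lost without the set that stands apart (adjusted p = 0.0602) and with the mean over probes (adjusted p = 0.502). The KO call of Mvk was lost with only the compared groups (adjusted p = 0.0576), and that of Sc5d with the mean over probes (adjusted p = 0.0911).

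Mvd read 2.01, 1.59, 1.70 and 2.41 on KO M2 arrays, 1.32 ± 0.19 above M0 (adjusted p = 6.78e-05), and 1.87, 1.72, 2.09 and 2.42 on WT M2 arrays, 1.22 ± 0.19 above M0 (adjusted p = 0.000128). Every M2 array was above every M0 array of its genotype. Dhcr7 read 1.13, 1.23, 1.32 and 1.61 on KO M2 arrays, a rise of 1.14, and 1.23, 1.13, 1.44 and 1.74 on WT M2 arrays, a rise of 1.07. Its M0 levels were 0.18, 0.09, 0.30 and 0.16 on KO arrays and 0.50, 0.25, 0.27 and 0.27 on WT arrays, below all M2 arrays. Cyp51 rose by 1.17 in KO and 1.09 in WT cells, Sqle by 1.14 in KO and 1.06 in WT cells, and Idi1 by 1.05 in KO and 1.01 in WT cells. Insig1 was called in neither genotype (0.43 ± 0.26 in KO and 0.26 ± 0.26 in WT cells).

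Of the 4 control genes 1 rose in KO cells and 1 fell in WT cells, where 6.88% and 8.91% of all genes did so. Srebf2 read 2.92, 2.60, 2.77 and 3.17 on KO M2 arrays, 0.50 above M0 (adjusted p = 0.0413), and 2.96, 2.61, 3.02 and 3.09 on WT M2 arrays, 0.37 above M0 with no call. The Srebf2 call in KO cells was lost without the set that stands apart (0.37, adjusted p = 0.171), with quantile normalization (adjusted p = 0.0587), with the mean over probes (adjusted p = 0.142) and in several fits that left out 1 array. Scap was called lower in WT cells, at -0.38 (adjusted p = 0.0474), a call that several alternative settings did not keep, and was not called in KO cells (-0.22). The genotype difference in the M2 response was called for 0 of 28 members and for 0 genes in all (0.0%, limma, with 255 genes at an unadjusted p under 0.05). Member values there ran from -0.07 to 0.32, with SEs from 0.13 to 0.40. With only the compared groups in the fit, 7 members were called in M2 against M0 in WT cells rather than 14.

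A further 51 genes of sterol processing, isoprenoid branches, electron and acetyl-CoA supply, ketone bodies, sterol transport, and oxysterol synthesis and efflux were set beside the module, of which 50 were tested. In KO against WT M1 cells 11 of them were higher and 18 lower, with a median of -0.21, where 22.8% of all genes were higher, 21.4% were lower and the median was 0.13. Of the 10 isoprenoid-branch genes 1 was higher and 5 were lower: Nus1, a subunit of the dolichol-making transferase, read 1.49 higher, and Coq2 of coenzyme Q synthesis read -1.09. Of 11 genes of sterol transport and hydrolysis 3 were higher and 4 lower, led by the lysosomal exporter Npc1 (1.12), the sterol transfer protein Gramd1a (1.46) and the lipoprotein receptor Scarb1 (-1.58). Of 9 genes that process or degrade SREBP and its partners 2 were higher and 3 lower, among them Srebf1 (-0.44).

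The oxysterol and efflux genes gave the largest changes of these lists in M1 activation. Of 10 genes, 7 rose and 1 fell in KO cells, and 5 rose and 1 fell in WT cells, where 33.1% of all genes rose and 23.6% fell in KO cells and 26.1% rose and 22.0% fell in WT cells. Ch25h, which makes an oxysterol that promotes retention of Scap by the Insig proteins, rose by 6.06 in KO cells and 7.89 in WT cells, and the KO to WT difference in M1 was -1.50 with no call. Cyp27a1, another sterol hydroxylase, fell by 4.39 in KO cells and 4.18 in WT cells. In M2 cells Ch25h rose by 3.07 in KO and 4.26 in WT cells. Of the 20 sterol enzymes 15 rose there in KO cells and 11 in WT cells, where 6.88% and 6.3% of all genes rose. A link between Ch25h and these enzymes was not tested.

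The choice of probe was checked on the 30 other kept probes, which covered 19 of the members. In KO against WT M1 cells 15 of these probes were called together with the gene's own probe, and 14 of the 15 had the same sign, Soat1 being the exception. In M1 against M0 of KO cells 20 were called together with the gene's own probe, with 2 of opposite sign, the Soat1 probe above and a Ggps1 probe (1.22, against -0.40 for its own). The KO to WT calls in M1 whose other probes were not called were those of Srebf2, Nsdhl, Sc5d and Tm7sf2. Lss was not called in KO cells in M1 against M0 by its own probe (0.08), but another of its probes fell by 1.81.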

How the data were processed

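RNA of 24 macrophage cultures was read on one-colour (Cy3) Agilent arrays. The authors deposited scanner tables, and their processed signal is a linear intensity after background subtraction, per the file headers. Those headers give Feature Extraction 10.7.3.1 and the submitters' processing notes give 9.1. Other deposited columns used were flags of spot quality and position, which are neither intensity nor expression.

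Outlier and control spots were left out, log2 intensities were set relative to the 75th percentile of each array, and spots of a probe were averaged. Probes well above background on at least 4 of 24 arrays were kept (38857 probes), and each gene was represented by its brightest probe. The number of arrays limits the precision, and the SD of a member within a group had medians of 0.174 to 0.232 over the members. A model of 6 group means (18 residual degrees of freedom) was fitted with limma 3.58.1 in R 4.3.3, with Benjamini-Hochberg adjustment over 25826 genes and a threshold of 0.05. The code was tested on simulated data.

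The members and lists were chosen with earlier results of these data known. Values on each array were given for at most 8 called members of the largest KO to WT difference in M1 and for the 4 control genes, and for Stard4, Idi1 and Sc5d, chosen after their values were seen. From other lists at most 3 of the largest called changes were named, with Srebf1 chosen after its value was seen. The labels call the replicates biological. KO and WT of a state with the same number deviated together in 12 of 12 pairs (r from 0.175 to 0.846 across genes), so the numbers pair the genotypes within a state, while across states 22 of 48 correlations passed 0.1. Arrays of the same set did deviate together across states (46 of 48 correlations over 0.1, median 0.32), so the set is the block that matches arrays in comparisons between states. Alternatives covered scaling, background, filter, probe choice, samples in the fit, and replicate, set and slide blocks. Acat2, for which no row was found under its name, was not analysed here.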

Additional observations from a re-analysis of the deposited data

Results flagged for a closer look

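The response to LPS and interferon-gamma differed between KO and WT cells for 17 members, by limma's test of the interaction over all genes, where 30% of all genes were called. The KO response minus the WT response was positive for 8. Its values were Insig1 2.80 (adjusted p = 5.74e-06), Mvd 2.62 (adjusted p = 3.23e-07), Tmem97 1.87 (adjusted p = 3.08e-06) and Fdft1 1.33 (adjusted p = 0.000108), followed by Fdps 1.14 (adjusted p = 0.00592), Soat1 0.80 (adjusted p = 0.00376), Hmgcs1 0.70 (adjusted p = 0.00264) and Sc5d 0.62 (adjusted p = 0.00133). It was negative for 9. Its values were Nsdhl -0.58 (adjusted p = 0.0141), Ebp -0.63 (adjusted p = 0.000921), Mvk -0.68 (adjusted p = 0.00121), Msmo1 -0.75 (adjusted p = 0.0204) and Ggps1 -0.75 (adjusted p = 0.0104), followed by Tm7sf2 -0.83 (adjusted p = 0.0438), Pmvk -1.01 (adjusted p = 0.00148), Acat1 -1.03 (adjusted p = 0.00353) and Dhcr7 -1.20 (adjusted p = 0.00595). The Msmo1 call was lost without the set that stands apart (-0.64, adjusted p = 0.058). With the mean over probes the calls of Nsdhl (-0.24, adjusted p = 0.734), Sc5d (0.24, adjusted p = 0.383) and Msmo1 (-1.15, adjusted p = 0.128) were lost. So were those of Tm7sf2 (-0.68, adjusted p = 0.0868), Ggps1 (-0.43, adjusted p = 0.0518) and Soat1 (0.74, adjusted p = 0.0524). The Tm7sf2 call was also lost in several fits that left out 1 array.

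In 11 of 168 groups of 4 arrays, 1 array lay far from the other 3 by Dixon's test, where chance gives about 1 in 20 groups. Of these arrays 4 were in the first set, 2 in the second, 0 in the third and 5 in the set that stands apart. Acat1 read 1.23 on WT M1 replicate 3 and 0.82 to 0.85 on the other arrays of its group. Ggps1 read 0.70 on WT M2 replicate 4 and 0.38 to 0.40 on the other arrays of its group. Fdft1 read 2.99 on WT M2 replicate 2 and 3.35 to 3.38 on the other arrays of its group. Lss read 0.90 on KO M1 replicate 2 and 1.21 to 1.27 on the other arrays of its group. Cyp51 read 1.49 on KO M0 replicate 1 and 1.05 to 1.12 on the other arrays of its group. Nsdhl read 0.81 on WT M0 replicate 1 and 0.54 to 0.58 on the other arrays of its group. Hsd17b7 read -0.01 on KO M1 replicate 3 and -0.80 to -0.72 on the other arrays of its group. Dhcr7 read 0.50 on WT M0 replicate 1 and 0.25 to 0.27 on the other arrays of its group. Scap read 3.75 on KO M1 replicate 3 and 3.33 to 3.39 on the other arrays of its group. Stard4 read 2.33 on KO M2 replicate 1 and 1.97 to 2.02 on the other arrays of its group. Nceh1 read 4.93 on WT M1 replicate 3 and 4.52 to 4.53 on the other arrays of its group.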

How the results depend on the processing

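No result named in the text as called changed sign under any alternative. The exception among uncalled values was Lss in M1 against M0 of KO cells, 0.08 with its brightest probe and -0.48 with the mean over its probes (adjusted p = 0.00389), whose other probe fell. Counts of called members stayed within 1.5 times of those reported except that 7 rather than 14 members were called in M2 against M0 of WT cells with only the groups compared in the fit, and 11 rather than 17 in the genotype difference of the M1 response with the mean over probes; the cause was not tested. Leaving out 1 replicate at a time gave 19 to 20 called members in KO against WT M1 cells, 0 in M0 and 0 in M2, 20 to 23 in M1 against M0 of KO cells, 17 to 21 of WT cells, 12 to 17 in M2 against M0 of KO cells, 11 to 15 of WT cells, and 16 to 17 in the genotype difference of the M1 response. With KO and WT paired by replicate number within a state as a block, 21 members were called in KO against WT M1 cells. The genotype difference of the M1 response was then called for 19. That pairing added the calls of Sqle and Cyp51 in KO against WT M1 cells and of Sqle and Srebf2 in the difference of responses, and changed no other call in those comparisons. With the set as a block, which also matches arrays across states, 24 members were called in M1 against M0 of KO cells and 22 of WT cells, 19 in M2 against M0 of KO cells and 18 of WT cells, and 19 in the genotype difference of the M1 response. Array number and the SD between replicates limit what could be seen in M0 and M2, where the SE of a member ran from 0.09 to 0.28.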
